A study of Mus musculus with 6 samples.

Results

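The immediate early genes are 10 rows of the deposited count table of 60832 rows, taken by gene symbol alone: Fos, Fosb, Jun, Junb, Egr1, Egr2, Egr3, Atf3, Ier2 and Dusp1. All 10 symbols were found, and all 10 passed the filter on low counts that left 15474 genes for testing. The libraries were RNA-seq of cells labelled LSECs, the liver sinusoidal endothelial cells, cultured for 24 h after isolation with anti-CD146 beads, 3 from bevacizumab-sensitive and 3 from bevacizumab-resistant xenografts. This identity rests on the sample labels: the design text of the series speaks of LX-2, a human stellate cell line, although the gene identifiers are those of mouse, and macrophage and Kupffer cell markers far exceeded LSEC markers in all 6 libraries (13823 to 21645 against 72.1 to 177 summed FPKM), which goes against the label. All donors were male BALB/c-Nu mice, obtained at 4 to 6 weeks of age, and their age at isolation is not given. Their left liver lobe had been injected with HCT116, a human colorectal cancer line, so that every library came from a host with liver metastases and, as nude mice, few T cells but B, NK and myeloid cells of its own. The resistant tumors followed treatment with bevacizumab, an antibody against human VEGF, at 10 mg/kg for 7 weeks in the study's methods and 42 days in its results, and whether the sensitive donors received the IgG vehicle is not given in the labels. Separate animals or cultures are not named for the replicates, so that p-values measure the spread between these libraries, which may be technical. The comparison of resistant with sensitive libraries addresses the study's question of what changes in LSECs when tumors become resistant, with EGR1 downstream of FGFR1 and ERK among its subjects in stellate cells.

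Immediate early genes are switched on within minutes of a stimulus from factors that already lie in the cell. Growth factors and stress activate the ERK, JNK and p38 kinases, which act on SRF with its TCF partners and on CREB at the promoters of these genes, and the transcripts are then quickly degraded. FOS and JUN proteins pair to form AP-1, EGR proteins bind GC-rich promoters, ATF3 is a CREB-family factor of the stress response, and IER2 is a nuclear regulator. Dusp1 encodes no transcription factor: it is the phosphatase that switches the MAP kinases off again. Isolation and culture of cells are known to induce these genes, and both were common to all 6 libraries.

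None of the 10 genes passed the test between resistant and sensitive libraries, and for none of them did the groups stand apart. The EGR genes had the highest fitted folds, with Egr1 at 20.6 ± 3.35 CPM in resistant and 12.0 ± 7.70 CPM in sensitive libraries (SD, n = 3 each), and Atf3 came next. The AP-1 genes Fos, Jun and Junb and the phosphatase gene Dusp1 had nearly the same mean in both groups. The spread within a group was large: in sensitive replicate 2, Egr2 had no count at all and Fos had its lowest level. CPM scales the counts of a library to a total of 1000000. The totals were between 17599326 and 20726684 counts, and 3 counts, taken as the limit that a count of 0 allows, came to between 0.145 and 0.170 CPM.

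The promoters of 7 of the 10 genes were read from the RefSeq table of mouse GRCm38.p6, and those of Egr1, Egr3 and Ier2 are not shown. Windows of 250 bases before the start were searched on both strands for sites of the factors that induce these genes and of the factors they encode. The last 200 bases before the start are shown for Fos and Jun, the most abundant subunits of their families. Dusp1 is shown as the only one with a full CRE in its window. Egr2 is shown as the only one with a CArG box, the SRF site, in its window. Fosb is shown as the weakly expressed relative of Fos. Capitals mark the CRE core TGACG or its reverse complement, the full CRE and the CArG box, and the entry of Egr2 is the third of its 5.
Fos (chr12:85473690-85473889, plus strand): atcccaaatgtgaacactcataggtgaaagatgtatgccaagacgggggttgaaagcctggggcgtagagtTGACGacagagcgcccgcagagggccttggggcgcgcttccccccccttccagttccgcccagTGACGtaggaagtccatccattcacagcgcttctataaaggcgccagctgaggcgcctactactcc
Jun (chr4:95052223-95052422, minus strand): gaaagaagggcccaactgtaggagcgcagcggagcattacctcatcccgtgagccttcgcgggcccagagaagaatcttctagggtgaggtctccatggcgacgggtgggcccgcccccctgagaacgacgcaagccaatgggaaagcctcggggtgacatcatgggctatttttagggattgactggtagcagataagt
Dusp1 (chr17:26508473-26508672, minus strand): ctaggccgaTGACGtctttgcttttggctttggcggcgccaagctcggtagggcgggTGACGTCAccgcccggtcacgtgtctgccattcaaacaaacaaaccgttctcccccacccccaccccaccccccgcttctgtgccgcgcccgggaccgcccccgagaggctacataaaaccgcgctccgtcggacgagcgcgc
Egr2 (chr10:67537669-67537868, plus strand): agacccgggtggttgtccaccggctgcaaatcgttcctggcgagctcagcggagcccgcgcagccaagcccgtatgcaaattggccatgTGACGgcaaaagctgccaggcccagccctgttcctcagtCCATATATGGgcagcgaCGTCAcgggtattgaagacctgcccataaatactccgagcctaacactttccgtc
Fosb (chr7:19310046-19310245, minus strand): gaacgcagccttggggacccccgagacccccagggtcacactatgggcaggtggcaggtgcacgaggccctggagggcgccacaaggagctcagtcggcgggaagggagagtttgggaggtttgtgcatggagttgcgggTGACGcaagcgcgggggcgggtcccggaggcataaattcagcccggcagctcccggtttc

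The core TGACG, to which CREB and ATF proteins bind, was found in 6 of the 7 promoters, all but that of Jun, and in 17.8% of the 32851 promoter windows of the table. A gene was counted if any of its windows had the site, and Egr2 has 5 entries. Counts of genes and shares of single windows thus differ in unit, here and for the sites below. In Fos it began 129 and 66 bases before the start, in Fosb 60, in Junb 106 and in Atf3 7. The full site TGACGTCA, whose strands each also count as a core, was present in 1.55% of windows and in 1 of the 7, that of Dusp1 at 143 bases before the start. The CArG box was present in 1.47% of windows and in Egr2 alone of the 7, at 72 bases in the entry shown. The AP-1 site in the form TGANTCA, present in 6.75% of windows, was in none of the 7, and the EGR site GCGNGGGCG, present in 4.70%, was in Fosb alone, at 50 bases. Only these exact patterns were counted, so variants such as tgacatca in the Jun sequence shown were not. Bases further upstream than the windows were not searched. A promoter without a match, such as that of Fos for the CArG box, may therefore have the site outside its window. These matches describe the letters within the windows, not binding.

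Of the 10 genes, 6 were abundant, and the others ranged from the middle of the tested genes to near the bottom. On the length-corrected FPKM scale, the mean over the 6 libraries was 73.2 FPKM for Dusp1, 61.6 for Jun, 58.7 for Atf3, 46.8 for Junb, 41.8 for Fos and 35.4 for Ier2. These 6 levels lay between the 90.4th and 95.7th percentiles of the tested genes, and the ranges of neighbours in this order overlapped over the libraries. Egr1 stood near the middle of the tested genes with 3.64 FPKM, followed by Egr2 with 1.16 FPKM, whose highest library, 1.68 FPKM, just passed the lowest of Egr1, 1.66 FPKM. Fosb with 0.169 FPKM and Egr3 with 0.131 FPKM were near the bottom, and their ranges overlapped too.

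**Figure D1:**
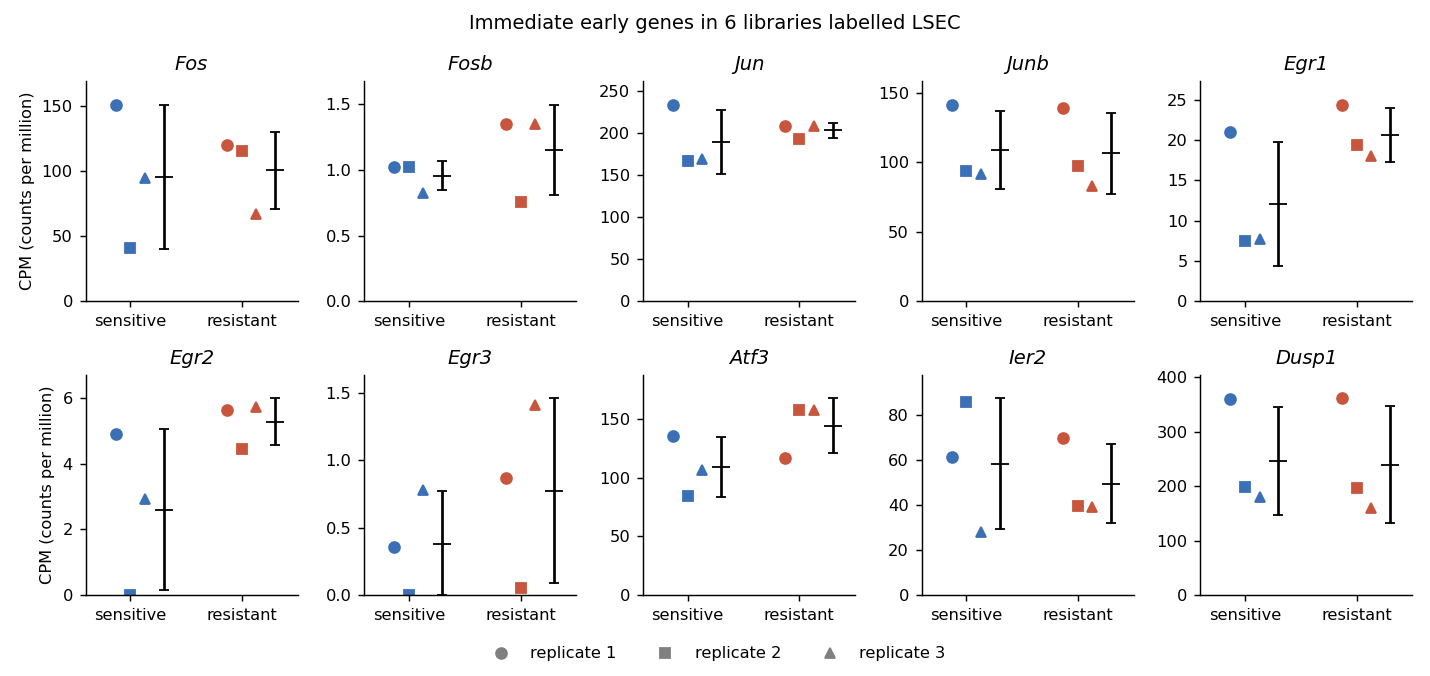
CPM of each gene by library, with sensitive libraries in blue and resistant libraries in red, marker shapes for the replicate number, and black bars for the group mean and SD (cut at 0). The groups overlap in all 10 panels, and sensitive replicate 2 sits at 0 for Egr2 and Egr3.

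Fos (ENSMUSG00000021250), the inducible partner of JUN in AP-1, was measured at 151, 40.7 and 94.7 CPM in the sensitive libraries. In the resistant libraries it stood at 120, 115 and 66.8 CPM. The highest and the lowest library were both sensitive, 3.71-fold apart, and the resistant libraries lay between them. The fitted log2 fold change of resistant over sensitive was 0.06 (SE 0.425, 95% interval −0.94 to 1.06, edgeR adjusted p = 0.983). Its direction rested on single libraries, at −0.28 without sensitive replicate 2 and 0.47 without sensitive replicate 1.

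Fosb (ENSMUSG00000003545), a close relative of Fos, was scarce, with 15 to 28 counts a library. It had 1.02, 1.02 and 0.827 CPM in the sensitive and 1.35, 0.759 and 1.35 CPM in the resistant libraries. The lowest library was resistant, and the log2 fold change of 0.19 had an interval of −1.04 to 1.43 and was between 0.05 and 0.40 on leaving out each library. On the FPKM scale, Fos exceeded Fosb by between 106-fold and 403-fold. Of the summed FPKM of the FOS family, Fos took between 66.4% and 84.8%, Fosl2 between 9.78% and 19.8%, Fosl1 between 5.17% and 17.6%, and Fosb between 0.208% and 0.663%. Fos was thus the main member of its family in each of the 6 libraries, in neither group to a share beyond the spread of the other: 77.7% ± 6.61 in sensitive and 75.6% ± 9.23 in resistant libraries (SD, n = 3 each).

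Jun (ENSMUSG00000052684), the subunit of AP-1 that can pair with itself or with FOS, varied least. It was at 234, 167 and 169 CPM in the sensitive and at 208, 193 and 208 CPM in the resistant libraries. Its highest and lowest libraries, both sensitive, were 1.40-fold apart, and the biological coefficient of variation of 21.9% was at the 4.37th percentile of the tested genes. The log2 fold change was 0.04 with an interval of −0.40 to 0.48, the narrowest of the 10.

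Junb (ENSMUSG00000052837), a JUN relative that is weaker as an activator, was at 141, 93.7 and 91.8 CPM in the sensitive libraries. The resistant libraries had 139, 97.4 and 82.7 CPM. Replicate 1 of each group was high and the other two low, at nearly the same levels in both groups, and the log2 fold change was −0.10 (interval −0.68 to 0.49). The JUN family was divided more evenly than the FOS family: Jun took between 26.8% and 44.0% of its summed FPKM, Junb between 20.9% and 33.7%, and Jund, the constitutive member, between 26.0% and 52.3%. The highest share of Jund and the lowest shares of Jun and Junb were all in sensitive replicate 2. In that library Jun exceeded Fos by 3.02-fold in FPKM, against 1.14-fold to 2.30-fold in the other 5.

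**Figure D2:**
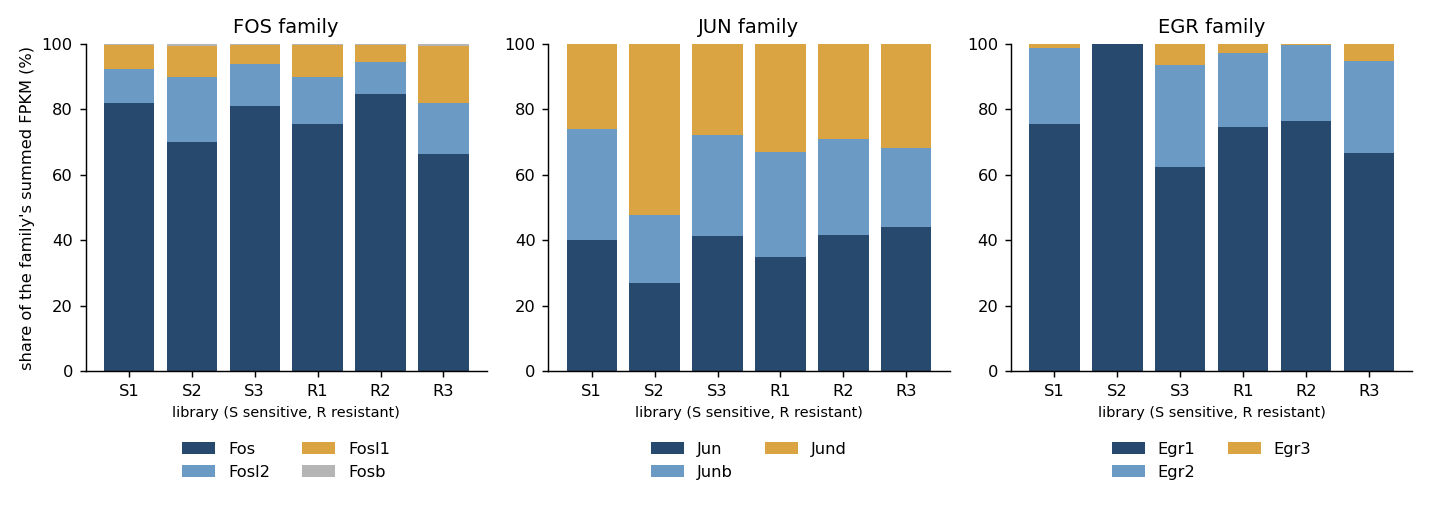
Share in percent of each gene in the summed FPKM of the FOS, JUN and EGR families, by library (S sensitive, R resistant, with the replicate number). Fos fills between 66.4% and 84.8% of its family, the JUN family is divided among its 3 genes, and Egr1 fills the whole bar in sensitive replicate 2, where Egr2 and Egr3 have no counts.

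Atf3 (ENSMUSG00000026628), a stress-induced factor that often represses its targets, had 136, 84.5 and 106 CPM in the sensitive libraries. It reached 117, 157 and 158 CPM in the resistant ones. Of the abundant genes it was the one with the largest fitted difference upwards, 0.36 on the log2 scale (SE 0.227, interval −0.17 to 0.89, edgeR adjusted p = 0.940), yet the lowest resistant library lay below the highest sensitive one. Its share of the summed FPKM of Atf3 and Atf4, the factor upstream of it in the integrated stress response, was between 13.0% and 25.8%, lowest in sensitive replicate 2.

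Egr1 (ENSMUSG00000038418), the zinc finger factor that ERK induces through SRF and ELK, had 411, 131 and 159 counts in the sensitive and 505, 383 and 346 in the resistant libraries. These were 20.9, 7.44 and 7.73 CPM against 24.4, 19.4 and 18.0 CPM. Sensitive replicates 2 and 3 stood well below the resistant libraries, whereas sensitive replicate 1 was above 2 of the 3 resistant libraries. The log2 fold change was 0.74 (SE 0.398, interval −0.19 to 1.68), a fold of 1.68, with an unadjusted edgeR p of 0.103, the lowest of the 10 genes, and an adjusted p of 0.940. Without sensitive replicate 1 the log2 fold change was 1.30, with an unadjusted p of 0.00421 and an adjusted p of 0.847, and leaving out one of the other libraries gave between 0.51 and 0.83.

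Egr2 (ENSMUSG00000037868), which acts in myelination and in T cells and macrophages, had 96, 0 and 60 counts in the sensitive and 117, 88 and 110 counts in the resistant libraries. In CPM these were 4.89, 0 and 2.92 against 5.64, 4.45 and 5.72. Sensitive replicate 2 stood apart: its limit of 0.170 CPM was at least 17.1-fold lower than the lowest of the other libraries. The log2 fold change of 1.03 had an interval from −1.61 to 3.66 and was 0.44 without that library and 1.78 without sensitive replicate 1. The coefficient of variation of 96.5% was at the 97.9th percentile of the tested genes.

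Egr3 (ENSMUSG00000033730), a relative that often follows Egr1, was near the detection limit, with 7, 0 and 16 counts in the sensitive and 18, 1 and 27 counts in the resistant libraries. Libraries with almost no count occurred in both groups, and the interval of its log2 fold change, −2.14 to 4.07, was the widest of the 10. Leaving out resistant replicate 3 gave 0.20 and leaving out sensitive replicate 3 gave 2.04. Egr4 had an FPKM of 0 in all 6 libraries. Where Egr2 was detected, Egr1 exceeded it by 2.01-fold to 3.30-fold in FPKM. Egr1 thus led its family in every library, with between 62.5% and 100% of the summed FPKM.

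Ier2 (ENSMUSG00000053560), which serum induces and whose product is a nuclear protein, was the only one of the 10 with its highest level in sensitive replicate 2. It had 61.6, 85.7 and 27.9 CPM in the sensitive libraries, where replicate 2 was the highest of all 6. The resistant libraries had 69.9, 39.8 and 39.0 CPM. The log2 fold change of −0.35 (interval −1.43 to 0.73) was 0.15 without that library and −0.70 without sensitive replicate 3.

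Dusp1 (ENSMUSG00000024190), the MAP kinase phosphatase and the most abundant of the 10 in FPKM, had 359, 198 and 180 CPM in the sensitive libraries. The resistant libraries had 361, 197 and 160 CPM. Each group held one high library and a pair of low ones, so that the difference within a group was far larger than that between the groups (log2 fold change −0.10, interval −0.95 to 0.76, edgeR adjusted p = 0.966). Of the summed FPKM of Dusp1, Dusp2, Dusp4, Dusp5 and Dusp6, the inducible phosphatases of the family, Dusp1 took between 49.1% and 75.0%. Dusp1 exceeded Dusp6, the phosphatase of ERK in the cytoplasm, by 2.34-fold to 6.20-fold in FPKM.

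**Figure D3:**
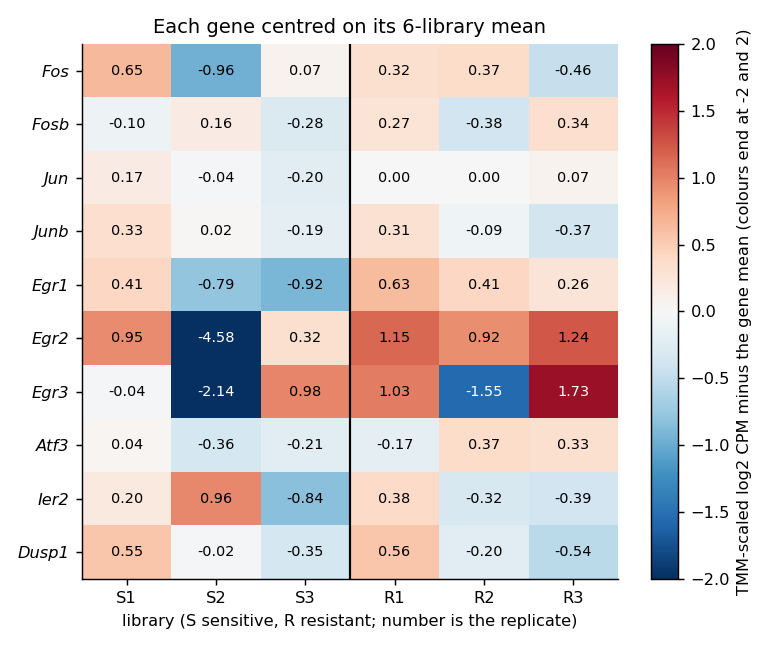
Log2 CPM of each gene (TMM scaling) minus its mean over the 6 libraries, with red above and blue below the mean and colours ending at −2 and 2; the values of genes at 0 counts depend on the prior count of 2. Sensitive replicate 2 is lowest for Fos, Egr2, Egr3 and Atf3 and highest for Ier2.

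Within each group the libraries differed in the level of these genes. The summed level of the 10 was 1110, 678.4 and 681.6 CPM in the sensitive and 1048, 823.9 and 740.6 CPM in the resistant libraries, with means of 823.4 ± 248 and 870.8 ± 159 CPM (SD, n = 3 each). Sensitive replicate 1 was the highest of its group for 7 of the 10 genes and resistant replicate 1 the highest of its own for 6. Sensitive replicate 2 was the lowest of the 6 libraries for 6 genes, Fos, Jun, Egr1, Egr2, Egr3 and Atf3. With TMM scaling, which corrects for composition and gave that library a factor of 0.881, it was the lowest for 4 of them, and sensitive replicate 3 was then the lowest for Jun and Egr1. Resistant replicate 3 was the highest of all for 4 genes in CPM and the lowest for Junb and Dusp1.

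The cell markers also varied among the libraries. The summed level of 8 neutrophil markers was highest in sensitive replicate 2, at 5495 CPM, followed by sensitive replicate 1 at 3451 CPM, and between 183 and 1191 CPM in the other libraries. All 8 were fitted lower in the resistant group, 2 with an unadjusted edgeR p under 0.05. The 12 pan-endothelial markers summed to 58.8 CPM in resistant replicate 2, against 251 to 458 CPM in the other 5, and all 12 were fitted lower in the resistant group, 6 with an unadjusted edgeR p under 0.05. Over all 15474 tested genes, 476 (3.08%) had an unadjusted edgeR p under 0.05, 393 of them fitted lower in the resistant group. The 10 LSEC markers, at 618 to 1191 CPM, were fitted lower for 9 of 10. The 14 markers of macrophages and Kupffer cells, at 23922 to 36631 CPM, were fitted higher for 7 and lower for 7. Hepatocyte markers, at 28.7 to 150 CPM, were fitted higher for 6 of 6 (median log2 fold change 1.05), and stellate cell and fibroblast markers, at 85.9 to 362 CPM, for 6 of the 7 tested (median 0.47), in both lists with the highest sum in resistant replicate 2. Lymphocyte markers summed to between 0.253 and 2.61 CPM and none was tested. No marker was at 0 in all 6 libraries. More cells of another type and more RNA per cell cannot be told apart in these bulk libraries, and the part of the markers in the levels of the 10 genes was not tested.

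Between the groups, 0 of the 10 genes had an edgeR adjusted p under 0.05, where 0% of the 15474 tested genes did, and DESeq2 and limma-voom also called 0 of the 10. At an unadjusted p under 0.05 edgeR called 0 of the 10, against 3.08% of all tested genes, and the CPM of the groups did not overlap for 0 of the 10, against 8.39%. The fitted fold was above 0 for 7 of the 10, where 50.8% of the tested genes were fitted higher, and the median log2 fold change was 0.13 for the 10 genes and 0.01 for all tested genes. Leaving out each library in turn gave 6 to 9 fitted higher and medians from 0.07, without sensitive replicate 3 or resistant replicate 1, to 0.33, without sensitive replicate 1, with 0.21 without sensitive replicate 2. The smallest adjusted p over all genes was itself 0.940, and the common biological coefficient of variation of these libraries was 42.2%. The intervals show what differences the data leave possible: for Jun and Junb, resistant over sensitive folds between 0.757 and 1.40 and between 0.623 and 1.41, but for Egr2 between 0.329 and 12.6.

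**Figure D4:**
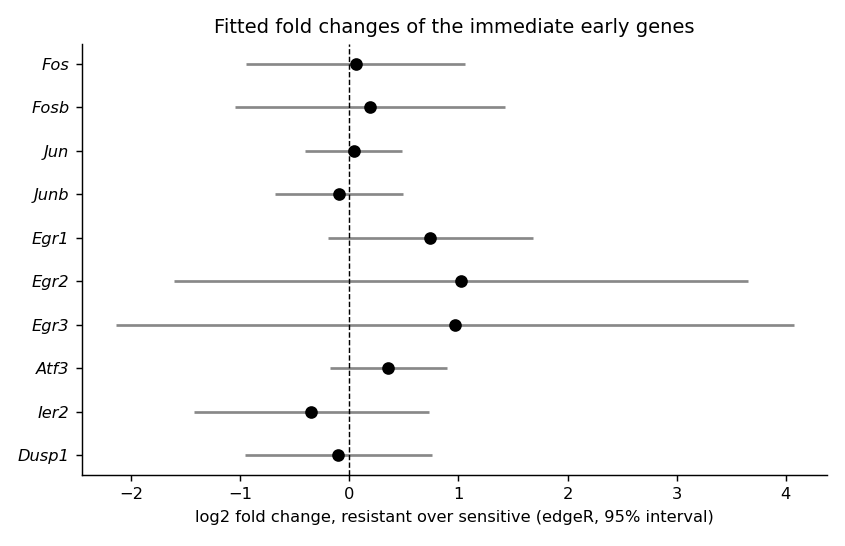
Fitted log2 fold change of each gene, resistant over sensitive, as points with 95% intervals from edgeR; the dashed line marks 0. All 10 intervals include 0, the narrowest being that of Jun (−0.40 to 0.48) and the widest that of Egr3 (−2.14 to 4.07).

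The rest of the pathway was read from lists of the genes around these 10, named by the size of their fitted fold, and no gene of any list had an adjusted p under 0.05 by edgeR, DESeq2 or limma-voom. Over all tested genes, 3.08% had an unadjusted edgeR p under 0.05. Of the 18 tested kinases of the ERK, JNK and p38 cascades, 12 were fitted higher and 6 lower, 0 with an unadjusted p under 0.05, and the median log2 fold change was 0.12, or 0.04 without sensitive replicate 2 and 0.20 without sensitive replicate 1. The ERK kinases' activators Map2k1 and Map2k2 were fitted at 0.35 and −0.36, and at 0.10 and 0.19 without sensitive replicate 2.

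Of the 15 tested SRF, TCF and CREB factors and their coactivators, which carry the signal to the promoters, 12 were fitted higher, 0 with an unadjusted p under 0.05, with a median log2 fold change of 0.18. That count also rested on sensitive replicate 2, being 7 of 15 without it, with a median of −0.0050, whereas the median was 0.35 without sensitive replicate 1. Crtc1, a coactivator of CREB, was fitted at 0.51, Mrtfa, the actin-regulated coactivator of SRF, at 0.34, and Elk4, a TCF, at −0.34. Without sensitive replicate 2 these were 0.20, 0.18 and −0.17.

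The 16 AP-1 partner factors, with which the FOS and JUN proteins pair or compete, were fitted higher for 7 and lower for 9, 0 with an unadjusted p under 0.05 (median log2 fold change −0.10). Without sensitive replicate 2 the count was 11 higher (median 0.05), and the median was 0.08 without resistant replicate 2 and −0.24 without sensitive replicate 3. Batf3 and Batf, bZIP factors of dendritic cells and lymphocytes, were fitted at −0.78 and −0.74, with the highest level of both in sensitive replicate 2, and Batf3 stood at 0.035 and Batf at −0.40 without it. Fosl1, the FOS relative that is induced later, was fitted at 0.58, with 0.31 without resistant replicate 3 and 0.97 without sensitive replicate 1.

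Of 28 other tested immediate early genes, 13 were fitted higher and 15 lower (median −0.01), and 2 had an unadjusted edgeR p under 0.05, both lower: Sik1 and Ier5l, the latter named after its value was seen. The count and median rested on single libraries, with 20 higher and 0.16 without sensitive replicate 1, 18 and 0.11 without resistant replicate 2, and 10 and −0.09 without sensitive replicate 3. Sik1, a kinase induced by CREB that inhibits CREB's coactivators, had 35.0, 29.3 and 48.8 CPM in the sensitive libraries. The resistant libraries had 28.6, 17.3 and 15.9 CPM. The groups did not overlap, as was so for 8.39% of all tested genes. The log2 fold change was −0.94 (SE 0.295, edgeR adjusted p = 0.940), and it was −1.04 without sensitive replicate 2. It was −0.73 without sensitive replicate 3, which held the highest level, and −1.21 without resistant replicate 1. Plk3, a stress-responsive kinase, was fitted at 0.60, or 0.30 without sensitive replicate 2 and 0.94 without sensitive replicate 1. Gadd45b, an inducible regulator of stress kinases, was fitted at −0.59, or −0.97 without resistant replicate 2 and −0.40 without resistant replicate 3.

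Among 23 feedback inhibitors, the phosphatases, NAB corepressors and RNA-binding proteins that end the response, 14 were fitted higher and 9 lower (median 0.28), and 1 had an unadjusted p under 0.05. The median was 0.13 without sensitive replicate 2, 0.14 without sensitive replicate 3 and 0.08 without resistant replicate 3. The gene was Nab2, an EGR target whose protein binds EGR factors and represses their activity. Nab2 had 7.64, 3.01 and 6.23 CPM in the sensitive and 11.6, 11.6 and 12.8 CPM in the resistant libraries. The groups did not overlap, as was so for 8.39% of all tested genes. The log2 fold change of 1.06 (SE 0.344, interval 0.26 to 1.87) had an unadjusted edgeR p of 0.0169 and an adjusted p of 0.940. It was 0.80 without sensitive replicate 2. Dusp7, a phosphatase of ERK, had 28.6, 7.33 and 24.4 CPM against 31.3, 40.9 and 38.6 CPM, which did not overlap either, with a log2 fold change of 0.86 and of 0.49 without that library. Spred2, an inhibitor of growth factor signalling to ERK, was fitted at 0.81, at 0.26 without sensitive replicate 2 and at 1.23 without sensitive replicate 1. Its level in sensitive replicate 2 was 1.53 CPM, against 25.0 to 35.3 CPM in the other 5.

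Of 25 genes known as targets of AP-1 or EGR, 14 were fitted higher and 11 lower (median 0.03), and 2 had an unadjusted edgeR p under 0.05, both lower: Mmp14 and Tnf, named after their values were seen. Without sensitive replicate 3, 9 were fitted higher (median −0.12) and 5 had an unadjusted p under 0.05, as 5 also did without resistant replicate 1 and with DESeq2, and the median was also below 0 without sensitive replicate 2, resistant replicate 1 or resistant replicate 2. Over all 15474 tested genes, 971 had an unadjusted edgeR p under 0.05 without sensitive replicate 3 and 602 without resistant replicate 1. With DESeq2 it was 732, against 476 in the main edgeR fit. Spp1, encoding osteopontin, was at 86.8, 74.3 and 63.9 CPM in the sensitive libraries. In the resistant libraries it was at 22.5, 804 and 346.8 CPM, so that resistant replicate 1 was the lowest of all 6 and the log2 fold change of 2.35 had an interval that included 0 and was 1.24 without resistant replicate 2. The metalloproteinase genes Mmp12 and Mmp9 were fitted at 1.75 and −1.69. Mmp12 was at 0.57 without resistant replicate 3, and Mmp9 at −0.91 by limma-voom. Mmp9, which neutrophils store, had 179 and 156 CPM in sensitive replicates 1 and 2 and at most 46.4 CPM in the other libraries. Fap, the fibroblast protease that the study places after EGR1 in stellate cells, was scarce, with 19, 46 and 13 counts in the sensitive and 30, 11 and 6 in the resistant libraries, and its log2 fold change of −0.998 was −0.05 without sensitive replicate 2 and −1.77 without resistant replicate 1.

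The heat shock genes, which respond to stress by another route, were fitted higher for 10 of 13 (median 0.28), and 1, Hsph1, had an unadjusted edgeR p under 0.05. Without sensitive replicate 2, 13 were fitted higher (median 0.24). Without sensitive replicate 3, 9 were (median 0.18), 0 of them with an unadjusted edgeR p under 0.05. With DESeq2, 3 of the 13 had an unadjusted p under 0.05, as did 732 of all 15474 tested genes. Hsph1, a cochaperone of HSP70, had 72.3, 41.7 and 53.7 CPM in the sensitive and 80.4, 92.8 and 101 CPM in the resistant libraries. Its groups did not overlap, as was so for 8.39% of all tested genes (log2 fold change 0.67). Hspa1b and Hspa1a, the inducible HSP70 genes, were fitted at 1.79 and 1.46, but resistant replicate 2 held only 4.35 and 2.83 CPM of them. As near-identical copies, this pair may share reads. The summed level of the 13 heat shock genes was 2988, 2959 and 2233 CPM in the sensitive and 3324, 3148 and 3803 CPM in the resistant libraries.

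**Figure D5:**
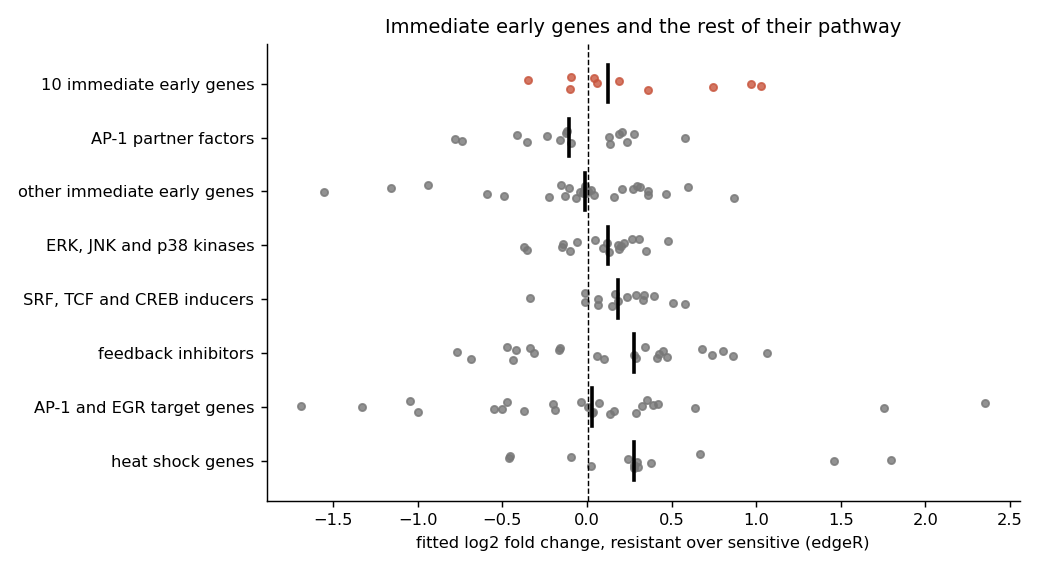
Fitted log2 fold changes, resistant over sensitive, of the 10 immediate early genes (red) and of the tested genes of 7 lists around them (grey), with a black bar for each list's median and a dashed line for the median of all tested genes, 0.01. The medians lie between −0.10 for the AP-1 partner factors and 0.28 for the feedback inhibitors and heat shock genes.

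The genes whose pattern over the 6 libraries was most like the mean of the 10 were sought among 9636 genes with an average log2 CPM of at least 3, by the root mean square difference of the centred log2 values. They were Pom121, a nuclear pore gene (0.0750), Rhbdf2 (0.0899), B3galt6 (0.0927), Nol6 (0.0953) and Tmem201 (0.0960). The mean profile was 0.32, −0.77 and −0.16 in the sensitive and 0.45, −0.05 and 0.22 in the resistant libraries, and its low point in sensitive replicate 2 was set mainly by Egr2 (−4.58) and Egr3 (−2.14). The 10 genes themselves differed from their mean by 0.364 for Jun to 1.71 for Egr2. These differences cannot be set against those of the 5 genes, which were chosen as the smallest among the 9636.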

How the data were processed

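RNA-seq of 6 libraries of cultured mouse cells labelled LSECs was analysed, 3 a group by the sample titles. The authors aligned reads with Hisat2 2.0.5 and deposited raw featureCounts 1.5.0-p3 counts per gene. The same table holds FPKM values the authors made from counts, gene lengths and library totals. The labels name depletion of ribosomal RNA, and the paper names poly(A) selection as well. The submitters' processing notes name mm9, although the gene identifiers include later ones, so no gene coordinates from them are given. A further deposited table holds the authors' own group means, fold changes and p-values and was not used. Promoter sequences are from RefSeq (GRCm38.p6). The members and gene lists were chosen with earlier results of these data known.

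Counts were tested in R 4.3.3 with edgeR 4.0.16: filterByExpr, TMM, a robust quasi-likelihood F test, two-sided, no covariate, and Benjamini-Hochberg adjustment over 15474 genes with a threshold of 0.05. CPM used the library totals of 17599326 to 20726684 counts, and log2 CPM a prior count of 2. Intervals are from the edgeR fit and cover the spread between these libraries. Limits at 3 counts cover counting alone, without molecular identifiers. All 10 members were named, with up to 3 genes of each list (largest absolute fold at an average log2 CPM of at least 3), Fap, and the 5 genes most like the members. A gene that this rule names is not reported here. Alternatives were DESeq2 1.42.0, limma 3.58.1 (voom, and log2 FPKM with pseudocounts of 1 and 0.1), other scalings and filters, a replicate block, and leaving out each library. Scripts were tested on simulated data. No pair of replicates agreed within sampling noise.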

Additional observations from a re-analysis of the deposited data

How the results depend on the processing

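No member passed the adjusted threshold of 0.05 under any alternative, and over all genes edgeR called 0, limma-voom 0, DESeq2 24 and the fit with no filter on low counts 2. The number of members with an unadjusted p under 0.05 was 0, and 1 with the replicate block (Egr1, log2 fold change 0.87, edgeR adjusted p = 0.938). Leaving out each library gave between 0 and 1 members at an unadjusted p under 0.05 and between 6 and 9 fitted higher. A filter of at least 10 counts in every library removed Egr2 and Egr3 and left 5 of 8 fitted higher. Over all tested genes, the replicate numbers were not found to pair libraries. The same-number correlations of deviations were −0.00093, 0.034 and 0.19, and 3 of 6 libraries correlated best with their own number. Among the 10 members, the same number was highest in both groups for 6 genes and lowest in both for 6. The share of all genes for which this held is not given. The block called 467 genes at an unadjusted p under 0.05 against 476 without it.

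Of 552 values of the named genes under alternatives, 541 kept their direction and their side of the adjusted threshold, and 11 turned direction, all on leaving out a library. The log2 fold change then ran from −0.28 to 0.47 for Fos, −0.049 to 0.14 for Jun, −0.30 to 0.052 for Junb, −0.70 to 0.15 for Ier2, −0.48 to 0.18 for Dusp1, −1.13 to 0.035 for Batf3 and −0.59 to 0.19 for Map2k2. The cause was not tested. With 15 to 28 counts of Fosb and 0 to 27 of Egr3 a library, depth limits what can be said of both. Leaving out a library leaves 2 in its group.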
